A study of Mus musculus with 7 samples.

Results

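The retinoic acid genes Aldh1a2, Cyp26a1, Dhrs3, Crabp2, Rara, Rarb and Rarg, together with Gdf11, were measured by RNA-seq at the posterior end of E9.5 mouse embryos. The members were the 8 rows of the deposited expression table that carry these gene names, of 25965 rows in all, and each name matched 1 row. The tissue was taken from female embryos of the FVB/N strain, behind the last visible somite, and is labelled postsomitic mesoderm, whereas the series title says presomitic. Libraries of Smchd1 MommeD1/MommeD1 embryos, homozygous for an allele that the labels call null (n = 4), were compared with libraries of Smchd1 +/+ wild-type embryos (n = 3). The labels list these 4 null samples, whereas the design of the series counts 3. Smchd1 is a non-canonical SMC protein that binds chromatin, known for its role in X inactivation. No treatment was given, and the sources do not say whether each library came from a separate embryo, so p-values measure only the spread between these libraries. The columns of the table name a genotype and end in the number 18, 21 or 22. The meaning of that number is not given in the sources used here. Libraries are called null 18, null 21, null 22a, null 22b, wild-type 18, wild-type 21 and wild-type 22 after it.

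Retinoic acid is made from vitamin A. An alcohol form, retinol, is oxidised to retinal, which Aldh1a2 oxidises to retinoic acid. Cyp26 enzymes degrade retinoic acid, and inside the nucleus it binds Rara, Rarb and Rarg, which act on DNA as heterodimers with Rxr receptors. In the elongating embryo Aldh1a2 is made in the somites and anterior presomitic mesoderm and Cyp26a1 in the tailbud, which keeps retinoic acid low where new axial tissue forms. Gdf11, a ligand of the TGF-beta family, sets the time at which the embryo passes from making trunk to making tail, and activates posterior Hox genes.

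The receptor dimers bind direct repeats of a short hexamer, and Cyp26a1 and Rarb are textbook direct targets of retinoic acid. For that reason the promoters of the members were searched for such repeats. RefSeq promoter windows on GRCm38.p6, each with 250 bases before and 50 after a start site, were matched for 7 of the 8 members, in 13 windows. The hexamer AGGTCA was allowed 3 variants, namely AGTTCA, the form that starts with another base, GGGTCA, and the form that combines both, which is GGTTCA. Any of these forms followed by any other on the same strand, with 1, 2 or 5 bases between, was sought on both strands. A match was found in 2 members, both with a spacer of 5 bases. The windows are shown in the direction of transcription, with capitals on the repeated hexamers.
Cyp26a1 promoter, chr19:37697558-37697857, plus strand: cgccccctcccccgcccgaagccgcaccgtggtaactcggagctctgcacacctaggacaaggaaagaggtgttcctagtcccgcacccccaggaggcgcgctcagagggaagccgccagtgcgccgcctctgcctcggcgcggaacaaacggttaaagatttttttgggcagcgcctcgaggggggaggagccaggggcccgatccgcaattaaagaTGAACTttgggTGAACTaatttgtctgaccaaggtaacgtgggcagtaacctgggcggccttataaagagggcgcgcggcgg
Rarb promoter, chr14:16575427-16575726, minus strand: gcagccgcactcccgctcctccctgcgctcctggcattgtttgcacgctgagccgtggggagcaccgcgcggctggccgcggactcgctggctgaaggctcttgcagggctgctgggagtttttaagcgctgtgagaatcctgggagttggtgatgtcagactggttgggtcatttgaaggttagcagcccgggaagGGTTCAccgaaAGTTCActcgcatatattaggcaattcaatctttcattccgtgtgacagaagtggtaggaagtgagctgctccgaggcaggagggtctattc
In Cyp26a1 the repeat reads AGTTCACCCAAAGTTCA on the strand opposite to the gene, at chr19:37697776-37697792, and ends 15 bases before the start site. In Rarb it reads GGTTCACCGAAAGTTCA on the strand of the gene, at chr14:16575513-16575529, and ends 36 bases before the start site. Among all 32851 RefSeq windows of this length 0.0974% held such a repeat with a spacer of 5, or 0.115% of 27025 genes. The shares of windows were 0.222% for a spacer of 1 and 0.268% for a spacer of 2. Cyp26a1 and Rarb were known targets before the search, so their matches beside these shares are no independent test of the members. A match describes these letters and is not a measured binding site.

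Null libraries held 22137823 to 23847381 reads assigned to the listed genes, against 19622596 to 23548995 for wild-type libraries. Smchd1 checked the labels, at a mean log2 value of 5.05 ± 0.16 (SD, n = 4) in null libraries against 6.53 ± 0.19 (SD, n = 3) in wild-type libraries (limma log2 change -1.48, adjusted p = 0.000238). Deposited values are log2 RPM, with reads scaled to a library denominator. The median of all 13997 tested genes was 0.16 higher in null libraries on this scale, so centred values, from which the library's own autosomal median was subtracted, are given as well, and by them the all-gene median was -0.03. Defining genes of presomitic mesoderm (Tbx6, Msgn1, Hes7, Dll1, Dll3 and Mesp2) had no zero, and together made 493 to 599 RPM of listed reads in null libraries against 525 to 621 in wild-type libraries.

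Wild-type 18 stood apart from the other libraries in several of these lists. Tailbud genes (T, Fgf8, Wnt3a, Nkx1-2, Cdx2 and Evx1) summed to 616 to 761 RPM of listed reads in null libraries, against 388 in wild-type 18, 670 in wild-type 21 and 555 in wild-type 22. Somite genes summed to 77.5 to 223 in null libraries, against 326 in wild-type 18, 97.0 in wild-type 21 and 158 in wild-type 22, and neural tube genes to 91.7 to 199 in null libraries against 327, 136 and 166 in the same order of wild-type libraries. Wild-type 18 was also the lowest of all libraries for hindgut genes (172, against 263 to 328 in the others) and endothelium genes (355, against 520 to 719). The same held for surface ectoderm genes (219, against 289 to 345) and blood genes (163, against 179 to 323). The part of these sums in the values of the members was not tested. Notochord genes were the list whose sums did not overlap between genotypes, at 99.2 to 124 in null libraries against 63.1 to 73.3 in wild-type libraries, and their part in the values of the members was not tested. In these bulk libraries fewer cells of a type and less RNA per cell cannot be told apart.

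All 8 members were well expressed and all passed the filter on low values. Scaled to exon length (RPKM of listed reads), Cyp26a1 averaged 61.3 ± 5.03 in null libraries and 36.6 ± 28.9 in wild-type libraries (SD, n = 4 and 3). The level of Crabp2 per kilobase was 56.0 ± 2.23 in null and 60.0 ± 5.28 in wild-type libraries, and that of Aldh1a2 38.3 ± 6.95 in null and 43.7 ± 5.10 in wild-type libraries. Cyp26a1 and Crabp2 thus led in null libraries, and their ranges overlapped (54.6 to 66.4 for Cyp26a1, 53.6 to 58.2 for Crabp2). The ranges of Aldh1a2, Rarg and Gdf11 per kilobase also overlapped in null libraries. Rarg averaged 37.99 ± 1.77 per kilobase in null and 35.4 ± 3.49 in wild-type libraries, and Gdf11 32.03 ± 5.86 in null and 25.9 ± 6.12 in wild-type libraries. Rara came lower, at 16.2 ± 1.52 per kilobase in null and 16.8 ± 0.708 in wild-type libraries, with no overlap with any other member in null libraries. Dhrs3 (5.36 ± 1.35 in null, 4.01 ± 1.14 in wild-type) and Rarb (3.92 ± 1.80 in null, 6.04 ± 0.699 in wild-type) had the lowest levels per kilobase, and their ranges overlapped in null but not in wild-type libraries. In wild-type libraries Crabp2 led, at 55.4 to 65.8, and did not overlap with Aldh1a2 at 38.1 to 48.1, while Cyp26a1 spanned 4.95 to 61.4. Of the receptors Rarg was the most abundant and Rarb the least in both genotypes.

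**Figure D1:**
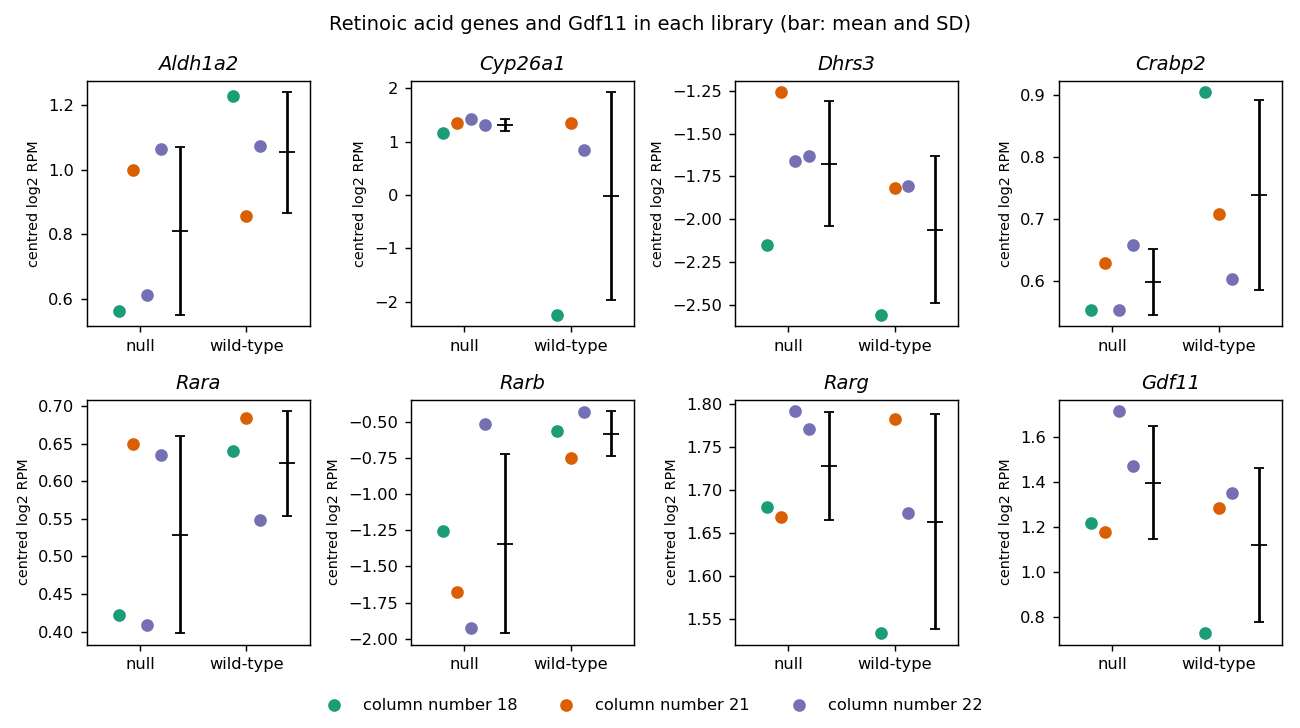
Centred log2 RPM of each member (vertical axis, with its own scale in each panel) in the 4 null and 3 wild-type libraries; a point is 1 library coloured by the last number of its column name, and the bar is the mean and SD. Wild-type 18 lies at -2.24 for Cyp26a1, below all others, and null 22b at -0.51 for Rarb, apart from the other null libraries.

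With all 7 libraries, no member passed the genotype test without the column number in the model. On the deposited scale 0 of 8 were called by limma, where 0.0429% of all tested genes were, and after centring 0 of 8, where 0.0572% were. At an unadjusted p under 0.05 the deposited scale held 2 members, Cyp26a1 and Gdf11, where 14% of all tested genes passed, and the centred scale 1, Rarb, where the share was also 14%. With the column number as a factor, Cyp26a1 (1.40, limma adjusted p = 4.34e-17) and Rarb (-0.64, adjusted p = 0.0171) were called on the deposited scale, among 742 genes in all. The prior of that fit was infinite, so an SD of 0.196 replaced the residual SD of 1.08 of Cyp26a1 and 0.24 that of 0.62 of Rarb, and with centring added neither was called (adjusted p = 0.281 and 0.232). A linear model with weights on the recovered read counts (voom) also called 0 of 8. The median log2 change of the members was 0.18 on the deposited scale and -0.02 after centring, beside 0.16 and -0.03 over all tested genes. After centring the libraries of both genotypes overlapped for all 8 members. Over all tested genes, 6.51% had every null library above every wild-type library and 6.24% had every null library below.

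**Figure D2:**
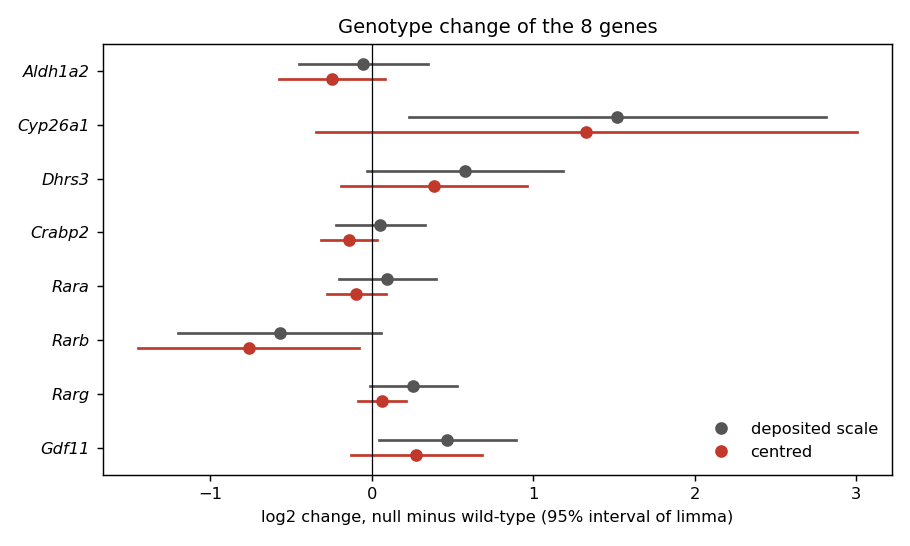
Log2 change of each member, null minus wild-type (horizontal axis), with the 95% interval of limma, on the deposited scale (grey) and after centring (red). The interval of Cyp26a1 is the widest, from 0.23 to 2.81 as deposited, and that of Rarb lies below 0 after centring, from -1.44 to -0.08, though neither passed the adjusted threshold.

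Aldh1a2, which makes retinoic acid (chromosome 9 from 71215789 to 71296243 in mm10), had 1644, 2343, 1765 and 2258 reads in null 18, 21, 22a and 22b, against 2222, 1693 and 2389 reads in wild-type 18, 21 and 22. Its centred log2 values were 0.56, 1.00, 0.61 and 1.06 in the null libraries and 1.23, 0.86 and 1.07 in the wild-type libraries. The null libraries fell into a low pair, 18 and 22a, and a high pair, 21 and 22b, and the high pair lay among the wild-type values. The centred change was -0.24 (95% interval -0.57 to 0.09, limma adjusted p = 0.409), and the deposited change -0.05 (adjusted p = 0.866).

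Crabp2, the cellular protein that carries retinoic acid to its receptors (chromosome 3 from 87948666 to 87953376), had 1636, 1813, 1697 and 1704 reads in null 18, 21, 22a and 22b, against 1774, 1526 and 1726 in wild-type 18, 21 and 22. It was one of the steadier members, with a within-group SD of centred values of 0.10, above that of 44.5% of tested genes. The centred change was -0.14 (95% interval -0.31 to 0.03, limma adjusted p = 0.385) and the deposited change 0.05 (adjusted p = 0.808), so its sign depended on the scale. Wild-type 18 was highest for Crabp2, at a centred value of 0.90, against 0.71 in wild-type 21, 0.60 in wild-type 22 and 0.55 to 0.66 in null libraries.

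The receptors Rara and Rarg varied little. Rara (chromosome 11 from 98927818 to 98974942) had 1493, 1838, 1534 and 1677 reads in null 18, 21, 22a and 22b, against 1477, 1502 and 1660 in wild-type 18, 21 and 22. Its centred change was -0.10 (limma adjusted p = 0.529) and its deposited change 0.10 (adjusted p = 0.694), again of opposite sign. Its centred values in null libraries were 0.42, 0.65, 0.41 and 0.64, with the same low pair, 18 and 22a, as Aldh1a2. Crabp2 was lower in this pair as well, at 0.55 in each, against 0.63 and 0.66 in null 21 and 22b. Reads in listed genes made 34.3% and 35.0% of the denominator in that pair and 37.2% and 37.4% in null 21 and 22b. In wild-type 18, 21 and 22 they made 31.2%, 28.8% and 37.9%, and the centred values of Rara were 0.64, 0.68 and 0.55. The part of this share in the values was not tested.

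Rarg (chromosome 15 from 102234938 to 102257517), the receptor known for its expression in the tailbud, had 3570, 3728, 4002 and 3685 reads in null 18, 21, 22a and 22b, against 2745, 3215 and 3623 in wild-type 18, 21 and 22. Centred, it spanned 1.67 to 1.79 in null libraries and 1.53 to 1.78 in wild-type libraries, with wild-type 18 lowest. The deposited change was 0.26 (95% interval -0.01 to 0.53, limma adjusted p = 0.375) and the centred change 0.06 (adjusted p = 0.602). Without wild-type 22 the deposited change of Rarg was 0.39 and was called (limma adjusted p = 0.0262), together with 4205 of the 13997 tested genes, and the centred change was then 0.07 (adjusted p = 0.62). Without wild-type 18 the deposited change was 0.15 (adjusted p = 0.902) and the centred change 7.24e-05 (adjusted p = 1).

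Rarb (chromosome 14 from 16430842 to 16575472), a receptor whose own gene is switched on by retinoic acid, had 466, 366, 304 and 756 reads in null 18, 21, 22a and 22b, against 641, 556 and 840 in wild-type 18, 21 and 22. Its centred log2 values were -1.26, -1.68, -1.93 and -0.51 in the null libraries and -0.56, -0.75 and -0.43 in the wild-type libraries. Of the null libraries 3 lay below every wild-type library, and null 22b lay among them. The centred change was -0.76, or 0.59 of the wild-type level (SE 0.30, 95% interval -1.44 to -0.08, unadjusted p = 0.0329, limma adjusted p = 0.352), and the deposited change -0.57 (SE 0.29, adjusted p = 0.4). Rarb was lower in null libraries within each column number, with centred differences of -0.69 at 18, -0.93 at 21 and -0.79 at 22, where 22 is the mean of the null pair. Rara was also lower within each number, by far less, with centred differences of -0.22, -0.04 and -0.03 at 18, 21 and 22. The first number of the column names, 4180, was shared by null 21, wild-type 18 and wild-type 21, and no other first number held both genotypes. Within it the centred values of Rarb were -1.68 in the null library against -0.56 and -0.75 in the wild-type libraries. Dhrs3 (-1.26 against -2.56 and -1.82) and Crabp2 (0.63 against 0.90 and 0.71) also lay outside the wild-type values there. The other members, Cyp26a1 and Gdf11 among them, lay between those values. How many of all tested genes lay outside them, or kept their sign within each last number, was not counted.

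The size of the Rarb difference depended on single null libraries. Without null 22b the centred change was -1.04 (limma adjusted p = 0.232), and without null 22a it was -0.57 (adjusted p = 0.62). On the deposited scale it was -0.86 without null 22b, -0.36 without null 22a and -0.37 without wild-type 22 (adjusted p = 0.174, 0.646 and 0.379). Lateral plate mesoderm genes, which the dissected piece could hold, were highest in null 22b, as Rarb was among null libraries. The summed level of the 5 listed genes was 313, 160, 233 and 419 RPM of listed reads in null 18, 21, 22a and 22b, against 216, 352 and 370 in wild-type 18, 21 and 22. In null libraries Rarb and this sum did not follow the same order throughout, since null 21 had the lowest sum and null 22a the lowest Rarb value, and the part of lateral plate mesoderm in the difference was not tested. Among null libraries, endothelium genes (719) and surface ectoderm genes (314) were also highest in null 22b, and hindgut genes summed to 328 in both null 22a and 22b. Somite (77.5), neural tube (91.7), notochord (99.2) and blood genes (179) were lowest in null 22b. The part of these lists was not tested either. Top2b, transcribed toward Rarb from the opposite strand, ends 54 bases before Rarb in the coordinates of the table, but in GENCODE M21 the genes share 1793 exon bases. The strand setting of the counting is not given in the sources used here, so reads of the shared stretch cannot be told apart. Top2b had 7341 to 7661 reads in null and 6541 to 7622 in wild-type libraries, with a centred change of -0.06 (limma adjusted p = 0.42).

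Cyp26a1 (chromosome 19 from 37697808 to 37701528), the enzyme that clears retinoic acid from the tailbud, had 2497, 2992, 3100 and 2681 reads in null 18, 21, 22a and 22b, against 200, 2391 and 2033 in wild-type 18, 21 and 22. Its deposited log2 values were 5.22, 5.55, 5.53 and 5.50 in the null libraries and 1.61, 5.13 and 5.03 in the wild-type libraries. Every null library was above every wild-type library on that scale, but wild-type 21 lay within 0.1 of null 18, and wild-type 18 lay far below all others. The deposited scale held 1948 tested genes higher and 16 lower in null libraries at an unadjusted limma p under 0.05. The share of genes without overlap was not counted on it. After centring wild-type 21, at 1.36, lay among the null values of 1.16 to 1.42, and the groups overlapped.

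The genotype change of Cyp26a1 was 1.52 as deposited, or 2.87-fold (SE 0.60, 95% interval 0.23 to 2.81, unadjusted p = 0.0239, limma adjusted p = 0.3), and 1.33 after centring (95% interval -0.34 to 3.002, adjusted p = 0.389). Wild-type 18 decided this value. Without it the change was 0.36 as deposited (limma adjusted p = 0.54) and 0.22 after centring (adjusted p = 0.71). Within column number 18 the centred difference, null minus wild-type, was 3.41. It was -0.003 within 21 and 0.53 within 22. Wild-type 18 held 11.1-fold less Cyp26a1 than the mean of the other wild-type libraries as deposited, and 10.1-fold less after centring. The within-group SD of Cyp26a1 was larger than that of 99.4% of tested genes.

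Set against Aldh1a2, Cyp26a1 showed the same library. The log2 difference between them, Cyp26a1 minus Aldh1a2 on the deposited scale, was 0.60, 0.35, 0.81 and 0.25 in null 18, 21, 22a and 22b, against -3.47, 0.50 and -0.23 in wild-type 18, 21 and 22. The enzyme that degrades retinoic acid was thus far below its usual relation to the one that makes it in wild-type 18, while the other libraries spanned about 1 log2 unit. Aldh1a2 itself was highest in wild-type 18 after centring.

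Some tailbud genes were low beside Cyp26a1 in wild-type 18, and others were not. T, a mesoderm transcription factor of the tailbud, had 4765 to 6692 reads in null libraries, against 2059, 4277 and 4302 in wild-type 18, 21 and 22. Wnt3a, a tailbud signal, had 1239 to 1752 reads in null libraries, against 118, 1243 and 1102 in the same wild-type libraries. Fgf8, a further tailbud signal, had 1220 to 1824 reads in null libraries against 394, 1248 and 1124. Of the other listed tailbud genes, Evx1 had centred values of 0.57 to 1.11 in null and -0.33 to 0.83 in wild-type libraries. Cdx2 had 1.26 to 1.48 in null and 1.24 to 1.59 in wild-type libraries. Nkx1-2 had -0.40 to 0.85 in null and 0.88 to 1.27 in wild-type libraries. The centred number change, which takes both libraries numbered 18 together, was -0.55 for Evx1, -0.005 for Cdx2 and 0.43 for Nkx1-2. Meox1, which marks formed somites, went the other way in that library, with 316 to 2076 reads in null libraries against 3272, 396 and 1548. How far the makeup of the dissected piece accounts for the Cyp26a1 value was not tested.

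**Figure D3:**
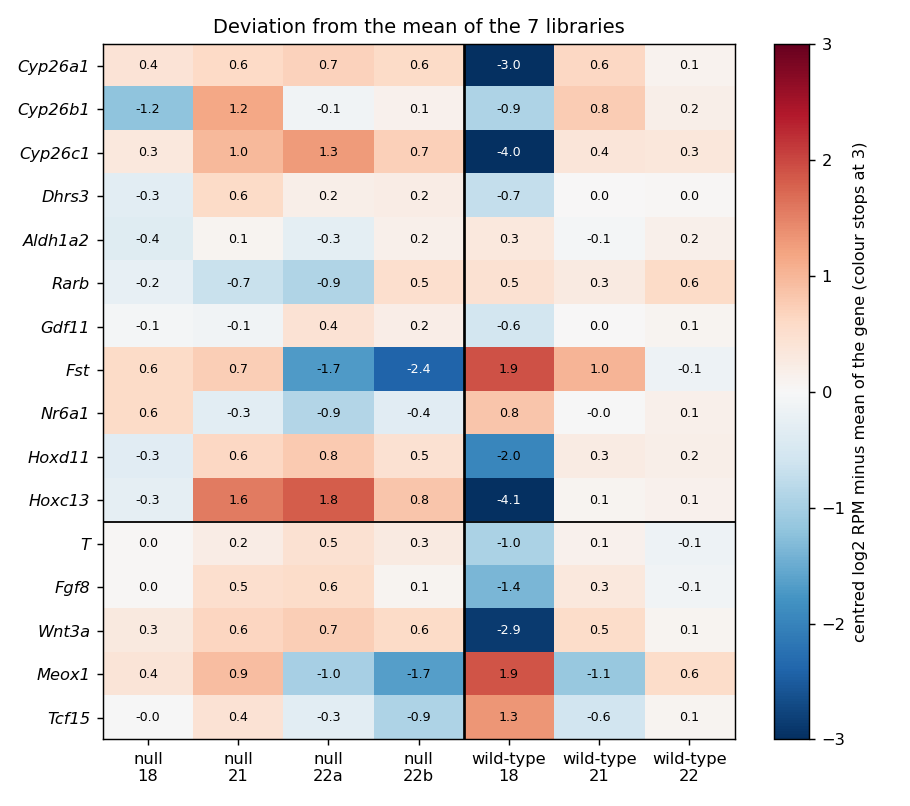
Deviation of the centred log2 value of each gene from its mean over the 7 libraries (colour and printed value), with null libraries left and wild-type libraries right of the vertical line, and tailbud and somite genes below the horizontal line. Wild-type 18 is lowest for Cyp26a1, Cyp26c1, Hoxc13 and Wnt3a and highest for Fst and Meox1; Dhrs3 is lowest in null 18 and wild-type 18 within their genotypes.

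Genes whose pattern over the 7 libraries was most like that of Cyp26a1 also had their lowest value in wild-type 18. By Pearson correlation of centred values they were Wnt3a (r = 0.999), Ccdc68 (0.994), 1700061H18Rik (0.993), Bmper (0.989) and Tg (0.988), among 566 genes with at least 0.5 of its SD. These correlations rest on that 1 library and are descriptions. For Aldh1a2 the most alike were Zfp429 (r = 0.953), Gm20636 (0.947), 2310035K24Rik (0.899), Zadh2 (0.891) and 2700033N17Rik (0.887), among 7119 genes, and for Gdf11 Tmem173 (r = 0.986), Msgn1 (0.985), Prkca (0.985), Tmtc2 (0.980) and Smurf1 (0.979), among 5618 genes. Msgn1 is a transcription factor of the presomitic mesoderm, and its centred values were highest in null 22a and lowest in wild-type 18, as for Gdf11.

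Dhrs3 (chromosome 4 from 144892827 to 144928209), which turns retinal back into retinol and so limits retinoic acid, had 251, 490, 365 and 349 reads in null 18, 21, 22a and 22b, against 161, 265 and 325 in wild-type 18, 21 and 22. At these counts the counting error alone was 4.52% to 7.88% of each value. Centred, it was -2.15, -1.26, -1.66 and -1.63 in the null libraries and -2.56, -1.82 and -1.80 in the wild-type libraries. The library numbered 18 was lowest in each genotype, and within each number null was higher, by 0.41 at 18, 0.56 at 21 and 0.16 at 22. The genotype change was 0.58 as deposited (95% interval -0.03 to 1.18, limma adjusted p = 0.375) and 0.39 after centring (adjusted p = 0.437). Without wild-type 18 it was 0.29 as deposited and 0.14 after centring, with limma adjusted p = 0.902 and 0.86.

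Gdf11 (chromosome 10 from 128882295 to 128891718) had 2589, 2652, 3803 and 2997 reads in null 18, 21, 22a and 22b, against 1568, 2276 and 2898 in wild-type 18, 21 and 22. Centred, it was 1.22, 1.18, 1.72 and 1.47 in the null libraries and 0.73, 1.28 and 1.35 in the wild-type libraries. Wild-type 18 was again lowest, null 22a highest, and the groups overlapped. The deposited change was 0.47 (SE 0.20, 95% interval 0.05 to 0.89, unadjusted p = 0.0323, limma adjusted p = 0.318) and the centred change 0.28 (adjusted p = 0.432). Without wild-type 18 the change was 0.23 as deposited and 0.08 after centring (limma adjusted p = 0.897 and 0.872). Without wild-type 22 it was 0.71 as deposited, and Gdf11 was then called (limma adjusted p = 0.029), but 0.39 after centring (adjusted p = 0.314). That deposited fit called 4205 of the 13997 tested genes, 4203 of them higher in null libraries.

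The last number of the column names was then tested with genotype in the model, as libraries numbered 18 minus those numbered 21 or 22. On the deposited scale limma called 2 of the 8 members, Cyp26a1 and Dhrs3, both lower in libraries numbered 18, where 3.7% of all tested genes were called. The change was -1.80 for Cyp26a1 (adjusted p = 7.6e-05), -0.81 for Dhrs3 (adjusted p = 0.0334) and, not called, -0.52 for Gdf11 (adjusted p = 0.0635). The other members ranged from -0.24 for Rarg to -0.03 for Crabp2. After centring 0 of 8 were called, where 0.171% of all tested genes were. Of the members 3, Cyp26a1, Dhrs3 and Gdf11, had an unadjusted p under 0.05, as had 17.7% of all tested genes, and voom called 0 genes. The centred changes were -1.68 for Cyp26a1 (limma adjusted p = 0.224), -0.69 for Dhrs3 (adjusted p = 0.116) and -0.41 for Gdf11 (adjusted p = 0.222).

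The Cyp26a1 call on the number rests on 1 library and on the prior of limma. Without wild-type 18 the deposited change was -0.31 (limma adjusted p = 1). The deposited fit gave the prior 38.2 degrees of freedom beside 4 residual ones, so an SD of 0.345 was used in place of the residual SD of 0.94 of Cyp26a1, and after centring the prior had 3.33 degrees of freedom and the SD used was 0.705. For Dhrs3 both genotypes went the same way: null 18 was -0.63 from the mean of the other null libraries and wild-type 18 was -0.75 from the mean of the other wild-type libraries, after centring. For Cyp26a1 they did not match in size, at -0.20 in null and -3.34 in wild-type, and for Gdf11 these differences were -0.24 in null and -0.59 in wild-type libraries. With 1 library of each genotype numbered 18, these pairs of values have no replicates.

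Other genes of the retinoic acid pathway were followed in lists chosen by role. Over these and the Gdf11 lists 97 genes were listed, of which 96 had a row and 80 were expressed enough to be tested. In the genotype test 0 of the 80 were called on either scale. For enzymes of synthesis and storage, 8 genes were tested, with a median centred change of -0.04, 4 of them positive and 4 negative. The smallest deposited p belonged to Adh1 (0.38 centred, limma adjusted p = 0.411), Aldh1a1 (0.53, adjusted p = 0.503) and Aldh1a3 (0.33, adjusted p = 0.653), which all oxidise retinoids. The smallest centred p was that of Rdh10, which oxidises retinol, at -0.27 (adjusted p = 0.353); it was chosen after its values were seen. Transport and binding proteins, with 5 genes tested, had a centred median of -0.03. Crabp1, which binds retinoic acid, had a centred change of -0.02, and Rbp4, which carries retinol in blood, one of 0.23. Receptor partners and cofactors, with 12 tested, had a centred median of -0.05, with the coactivator Ncoa1 at 0.27 (adjusted p = 0.352) and Rere, a coregulator of retinoic acid signalling, at -0.001. These medians lay near that of all tested genes, -0.03.

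Among enzymes that remove retinoic acid or its precursors, 4 genes were tested, with a centred median of 0.11. Cyp26c1, a degrading enzyme whose gene lies 4409 bases before Cyp26a1 on chromosome 19, followed Cyp26a1 closely, with 278, 463, 565 and 358 reads in null 18, 21, 22a and 22b, against 12, 242 and 287 in wild-type 18, 21 and 22. Its genotype change was 2.11 as deposited (limma adjusted p = 0.288) and 1.92 after centring (adjusted p = 0.367). As for Cyp26a1, wild-type 18 was far below all other libraries. Cyp26b1, the other degrading enzyme, had 83, 455, 186 and 205 reads in null 18, 21, 22a and 22b, against 86, 272 and 223 in wild-type 18, 21 and 22. Here both libraries numbered 18 were low, and the genotype change was 0.19 as deposited and -0.01 after centring. On the deposited scale the number test called Cyp26c1 (-2.52, limma adjusted p = 2.04e-05) and Cyp26b1 (-1.63, adjusted p = 0.00022), and after centring neither (adjusted p = 0.173 and 0.13). Rdh14 and Dhrs4 had centred genotype changes of 0.23 and -0.11.

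Of genes known to respond to retinoic acid 16 were tested. After centring 3 had a positive and 13 a negative change, with a median of -0.23 beside -0.03 over all tested genes, and 0 were called. The smallest p on both scales was that of Cdkn1a, which encodes a cell-cycle inhibitor and also responds to p53, at 1.16 as deposited (limma adjusted p = 0.107) and 0.97 after centring (adjusted p = 0.279). It had 1055, 1690, 1387 and 872 reads in null 18, 21, 22a and 22b, against 380, 704 and 616 in wild-type 18, 21 and 22, with no overlap between genotypes after centring. Btg2 and Hoxb5, next by deposited p, had centred changes of 0.05 and 0.10, so the 3 genes named by p were the 3 positive ones. Of the negative genes, Cdx1 and Meis2 had no overlap between genotypes after centring, with null lower, and were chosen after their values were seen. These homeobox transcription factors had centred changes of -0.43 for Cdx1 and -0.34 for Meis2 (limma adjusted p = 0.352 each). Every null library was above every wild-type library for 1 of the 16 genes, and below for 2. Over all tested genes these shares were 6.51% and 6.24%. The number test called 0 of the 16 on either scale.

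**Figure D4:**
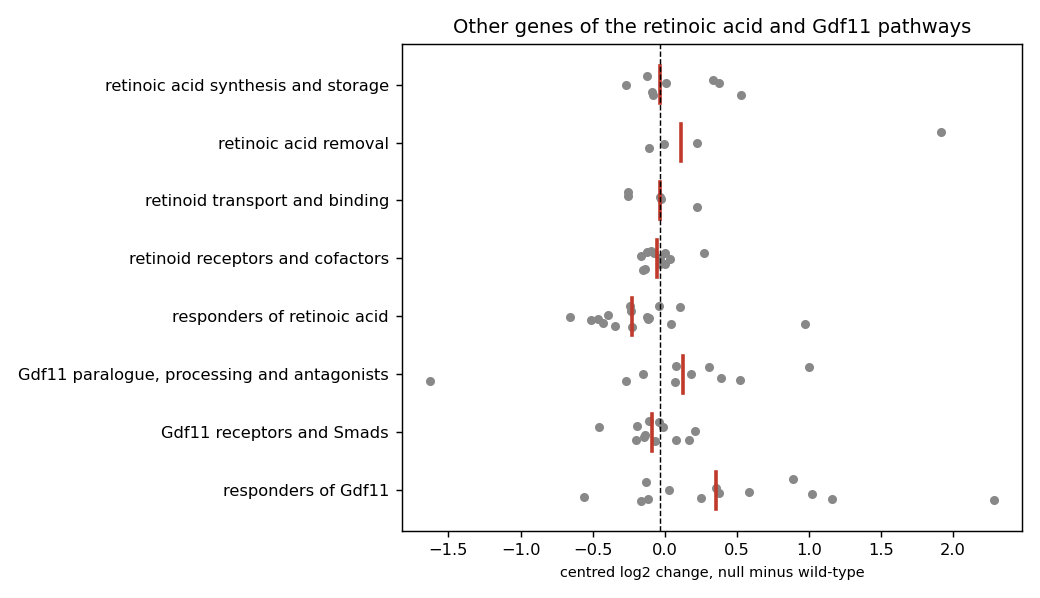
Centred log2 change of each tested pathway gene, null minus wild-type (horizontal axis), by list; a dot is 1 gene, a red bar the median of the list and the dashed line the median of all tested genes. The lists lie around the dashed line, with responders of retinoic acid at a median of -0.23 and responders of Gdf11 at 0.35, and 0 of the 80 genes were called.

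Around Gdf11, proteins that process or bind it had a centred median genotype change of 0.13 over 10 tested genes. Pcsk6, a proprotein convertase, had 501 to 520 reads in null libraries against 251 to 403 in wild-type libraries, and a change of 0.72 as deposited (limma adjusted p = 0.18) and 0.52 after centring (adjusted p = 0.226). Ltbp3, which binds latent ligands of the TGF-beta family, had 343 to 635 reads in null against 133 to 308 in wild-type libraries, with a change of 1.19 (adjusted p = 0.152), or 1.00 after centring. The genotypes did not overlap after centring for either gene, with null above, as for 6.51% of all tested genes, and neither passed. Fst, the antagonist follistatin, had 258, 303, 55 and 32 reads in null 18, 21, 22a and 22b, against 554, 296 and 160 in wild-type 18, 21 and 22, and a change of -1.44 (adjusted p = 0.346). Tll2, a metalloprotease, had a centred change of 0.39. Receptors and Smads, with 12 tested, had a centred median of -0.09, with Acvr1b at 0.08, Smad7 at 0.17 and Tgfbr3 at -0.45.

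Genes known to respond to Gdf11 at the passage from trunk to tail had a centred median genotype change of 0.35 over 13 tested genes, 9 of them positive and 4 negative, and 0 were called. Hoxc13 had 51, 192, 226 and 106 reads in null 18, 21, 22a and 22b, against 3, 55 and 69 in wild-type 18, 21 and 22, a centred change of 2.29 (limma adjusted p = 0.353). Hoxd11 had a centred change of 0.89 and Hoxd10 of 0.35. On the deposited scale the number test called 8 of the 13, with 7 lower and 1 higher in libraries numbered 18. Of all tested genes 3.7% were called, 492 lower and 26 higher. The prior of that fit had 38.2 degrees of freedom beside 4 residual ones, and voom called 0 genes.

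The Hox genes Hoxd10 (-0.80, limma adjusted p = 0.00128), Hoxa11 (-1.27, adjusted p = 2.17e-06), Hoxc11 (-2.08, adjusted p = 4.72e-10) and Hoxd11 (-1.66, adjusted p = 2.92e-08) were lower on that number. So were Hoxa13 (-0.98, adjusted p = 0.0277), Hoxc13 (adjusted p = 6.49e-06, with a centred change of -2.88) and Hoxd13 (-2.11, adjusted p = 7.42e-07). Nr6a1, a nuclear receptor of the trunk stage that Gdf11 represses, was higher (0.81, adjusted p = 0.00457). It had 2849, 1614, 1084 and 1451 reads in null 18, 21, 22a and 22b, against 2877, 1594 and 2155 in wild-type 18, 21 and 22. After centring Hoxd10 (-0.68), Hoxa11 (-1.15) and Hoxc11 (-1.97) remained called, each at an adjusted p = 0.0463. Hoxc11 had 635, 1691, 2127 and 1616 reads in null 18, 21, 22a and 22b, against 179, 1002 and 1238 in wild-type 18, 21 and 22, lowest at 18 in each genotype. Leaving out null 22a or any 1 of the wild-type libraries left 0 genes called after centring in the whole table. Beyond this list the deposited number test called Rbp4 (-0.89, adjusted p = 0.0248), Fst (1.47, adjusted p = 0.0275), Ltbp3 (-0.96, adjusted p = 0.00508) and the receptor Tgfbr2 (-1.13, adjusted p = 0.000255), none of them after centring. Over all 80 pathway genes the number test called 2 higher and 12 lower as deposited, where 3.7% of all tested genes were called. After centring it called 0 higher and 3 lower, where the share was 0.171%.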

How the data were processed

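RNA-seq was performed on 7 libraries. The tools bcl2fastq, TopHat2 2.0.12 and edgeR and the build mm10 are named in the submitters' processing notes, whereas the counter, its annotation and its strand setting are not. The authors deposited 1 table of log2 RPM values, scaled to a library denominator of 59.2 to 68.2 M reads, with 0 reads listed as 0.9 read. Whole reads were recovered from it: 100% of the values below 1000 reads were whole within 0.01. Reads in listed genes were 28.8% to 37.9% of the denominator. Since columns give the genotype without a sample number, they were assigned to groups only. At 3 reads, a count of 0 allows 0.044 to 0.0507 RPM, for counting error only.

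Genes above log2 0 in at least 3 libraries were tested with limma 3.58.1 in R 4.3.3 (lmFit and eBayes with a trend, two-sided), with Benjamini-Hochberg adjustment over all 13997 genes at 0.05. Levels per kilobase used GENCODE M21 exons. Alternatives were a stricter filter (log2 above 1), no filter, log2(value + 1), centring, quantile normalization, no trend, voom on recovered reads, the column number as a factor, and leaving out each library; voom for the number test was chosen after seeing the data. The fit was run on simulated data with independent normal noise in each gene. These data held no library-wide shift and no outlying library, so they do not test the fit under either. Python 3.11.15 with pandas 2.3.3, numpy 2.4.6 and matplotlib 3.10.9 made the tables and figures.

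The members, the lists and the split by column number were chosen with earlier results of these data known. Named beyond the members were, from each list, every gene called in a fit and otherwise the 3 with the smallest genotype p on the deposited scale, the 5 genes most alike to Cyp26a1, Aldh1a2 and Gdf11, Smchd1, and tailbud and somite genes. Some genes that this rule names are not reported here.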

Additional observations from a re-analysis of the deposited data

Results flagged for a closer look

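Among the 4 null libraries, Cyp26a1 on the deposited scale was set apart in null 18, whose log2 value of 5.22 (5.216) lay below 5.50 to 5.55 in the other null libraries. Its gap to the nearest library was 0.866 of the range, above the 95% limit of Dixon's test for 4 samples. All 8 members were examined on both scales, 16 combinations in all, and chance flags about 1 in 20 groups. After centring the null 18 value was 1.16, against 1.31 to 1.42 in the other null libraries, and was not set apart. The difference of null 18 from the mean of the other null libraries was -0.31 as deposited, far smaller than that of wild-type 18 from the other wild-type libraries (-3.47).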

How the results depend on the processing

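No paired analysis was possible because the replicate numbers of the labels are not in the column names; the last column number, a different number, was fitted as a factor instead. The number of genes called for genotype, 6 as deposited, was 13 with the stricter filter, 12 on log2(value + 1), 16 after quantile normalization, 3 without the prior trend and 742 with the column number as a factor; leaving out 1 library gave 2 to 4205. After centring 8 were called, and 4 to 10 with 1 library left out. The number test called 518 genes as deposited, 0 with no filter, 24 after centring, 13 after quantile normalization, 1 with genotype left out and 0 by voom (777 higher and 1278 lower at an unadjusted p under 0.05), with 15 to 737 when leaving out 1 library and, after centring, 0 to 127.

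Of the members, Rara and Crabp2 changed sign for genotype: Rara was -0.10 after centring, -0.068 after quantile normalization, -0.069 by voom and -0.086 with the number as a factor and centring, and Crabp2 was -0.14, -0.11, -0.11 and -0.13 under the same settings. With 1 library left out, the genotype change ranged from -0.23 to 0.084 for Aldh1a2 and from -0.046 to 0.11 for Crabp2. For the number, Rarb was 0.074 after centring, 0.12 after quantile normalization, 0.013 with genotype left out and 0.042 by voom, and Crabp2 0.085 after centring, 0.053 after quantile normalization and 0.062 by voom. With 1 library left out, the number change ranged from -0.44 to 0.14 for Aldh1a2, from -0.20 to 0.17 for Rarb and from -0.17 to 0.12 for Crabp2. After centring these ranges were -0.33 to 0.26 for Aldh1a2, -0.14 to 0.023 for Rara, -0.067 to 0.29 for Rarb and -0.0597 to 0.25 for Crabp2. With the number as a factor and centring, the genotype change was 1.23 for Cyp26a1 and -0.80 for Rarb. The number calls of Cyp26a1 and Dhrs3 were lost with no filter, centring, quantile normalization, genotype left out and voom, at adjusted p from 0.116 to 0.461, and also without wild-type 18, 21 or 22; that of Dhrs3 was also lost without null 18 (adjusted p = 0.18) or null 21 (0.0577). Gdf11 was called for the number without null 21 (-0.60, limma adjusted p = 0.0332), in a fit that called 737 of the 13997 tested genes. Without null 18 the number change of Cyp26a1 after centring was -3.34, where wild-type 18 was the only library with that number. Other causes of these differences were not tested.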
